A study of Sus scrofa with 16 samples.

Results

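Matrix metalloproteinases (MMPs) and their tissue inhibitors (TIMPs) were examined in the myocardium of young pigs 4 weeks after cardiac ischemia/reperfusion (IR) or sham surgery. The members were the rows carrying the symbols of 6 proteases (MMP2, MMP9, MMP11, MMP14, MMP16 and MMP19) and 4 inhibitors (TIMP1, TIMP2, TIMP3 and TIMP4), and all 10 were found among the 22629 genes of the series. White Yorkshire-Landrace farm pigs were operated on at a month of age. In IR pigs the left anterior descending coronary artery was occluded for 1 h and then reperfused, and sham pigs had the surgery without the occlusion. The scar and border zones were sequenced in 4 IR pigs (pigs 2 and 14, female, and pigs 9 and 11, male) and 4 sham pigs (pigs 4 and 5, female, and pigs 12 and 13, male), so that each of the 8 pigs gave 1 sample of each zone, 16 in all. The scar zone of a sham pig is the region at the suture that matches the site of injury, and the piece cut from an IR pig held scar together with neighbouring myocardium.

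MMPs are zinc-dependent endopeptidases that cut collagens and other proteins of the extracellular matrix. Most are secreted as inactive proenzymes, whereas membrane-type MMPs sit on the cell surface and can activate others there. TIMPs bind the active site of MMPs and block it, and TIMP2 also takes part in the activation of pro-MMP2 by MMP14. After myocardial injury this system takes part in the removal of damaged matrix and in the remodeling of the scar, so that the relation of proteases to inhibitors is commonly examined along with the single genes. All values here are of RNA, and proenzyme processing and protein activity were not measured.

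The libraries held 15427663 to 49045206 estimated counts. The scar zone libraries of the male IR pigs 9 and 11 were the deepest of that zone, at 36509911 and 34251150, and those of the female IR pigs were the shallowest, at 17595342 and 15427663. Pearson correlations of log2 CPM between all pairs of the 16 samples lay between 0.927 and 0.991. Of 10 cardiomyocyte markers, 8 were listed and none of these was under 3 counts in every library, with summed levels of 43673 to 60299 TPM. Libraries 9 and 11 of the IR scar zone stood apart. Their summed fibroblast markers were 10658 and 10496 TPM, against 1648 to 2733 TPM in the other scar zone samples, and 9 of the 10 fibroblast markers were higher in both than in every other library. The scar zone library of female IR pig 14 held 4.46 CPM of the Y-linked gene DDX3Y, against 0.398 to 1.21 CPM in the 7 other libraries of females and 68.4 to 103 CPM in the 8 of males, and comparisons are given with and without each pig where a pig altered a call or a direction.

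Levels of different genes were compared in TPM, which is scaled for transcript length. In the 8 sham samples the most abundant member was TIMP3, an inhibitor that is held in the matrix, at 115 ± 26.4 TPM (SD, n = 8). MMP2, the gelatinase A of fibroblasts and other mesenchymal cells, followed at 78.7 ± 11.6 TPM, and was below TIMP3 in 7 of 8 samples. Next were MMP11 (stromelysin 3) at 59.1 ± 9.39 TPM and TIMP2 at 43.3 ± 11.1 TPM. MMP14, a membrane-type MMP that cuts fibrillar collagen, was at 33.8 ± 5.72 TPM and TIMP1, a secreted and inducible inhibitor, at 22.3 ± 3.89 TPM. A clear step then separated TIMP1 from 3 members that could not be ordered among themselves. These were TIMP4, an inhibitor known for its expression in the heart, at 4.12 ± 0.571 TPM, the membrane-type MMP16 at 4.04 ± 1.52 TPM and the secreted MMP19 at 3.92 ± 0.913 TPM. MMP9, the gelatinase B made by neutrophils, macrophages and other cells, was lowest at 0.113 ± 0.0564 TPM.

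In the IR scar zone the order differed. MMP2 came first by its mean of 161 ± 133 TPM (SD, n = 4), but exceeded TIMP3, at 138 ± 54.3 TPM, in only 2 of 4 samples. TIMP2 was at 98.1 ± 53.2 TPM and exceeded MMP14, at 60.8 ± 43.3 TPM, in 4 of 4. MMP11, which exceeded TIMP2 in 7 of 8 sham samples, was at 43.6 ± 19.6 TPM and stood below TIMP1, at 47.8 ± 24.1 TPM, by less than the spread between pigs.

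**Figure D1:**
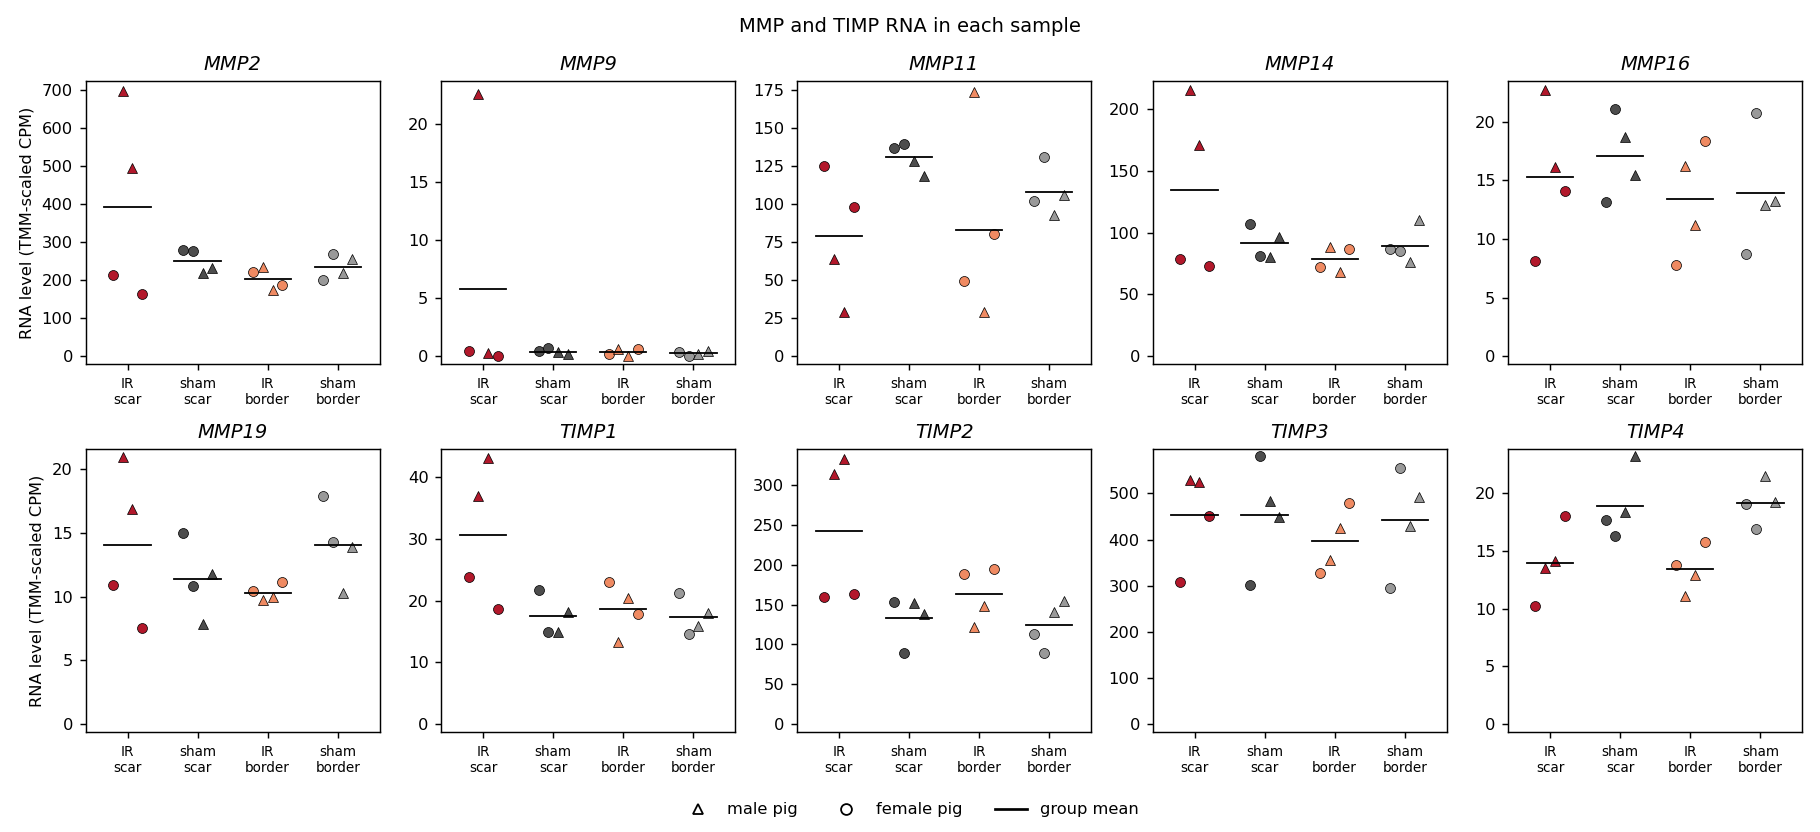
RNA level of the 10 members in each of the 16 samples, in TMM-scaled CPM on linear axes that differ between panels, with 4 pigs per group (triangles male, circles female) and a line at the group mean. In the IR scar zone the male pigs 9 and 11 are the highest samples for MMP2, MMP14, TIMP1 and TIMP2, and MMP9 is high in pig 9 alone.

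IR and sham pigs were first compared in the scar zone. Levels of a gene are given in CPM, the TMM-scaled counts relative to library size, in the order of pigs 2, 9, 11 and 14 for IR and 4, 5, 12 and 13 for sham. None of the 10 members was called with edgeR's quasi-likelihood test with both an adjusted p up to 0.05 and a change of 2-fold or more, a rule that called 0% of the 14023 genes tested. DESeq2 and limma also called none of the members. At an unadjusted p of at most 0.05, 4 members passed in edgeR (MMP9, TIMP1, TIMP2 and TIMP4), against 11.2% of all genes. With the fold change of 2 added, MMP9 alone remained, against 3.35% of all genes. The median log2 fold change of the members was 0.44, against 0.03 over all genes tested.

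Among the secreted proteases, MMP2 was measured at 215, 698, 497 and 164 CPM in IR pigs and at 280, 277, 219 and 231 CPM in sham pigs. The male IR pigs lay above all sham pigs and the female IR pigs below all of them, so the groups overlapped. The means were 393 ± 250 and 252 ± 31.4 CPM (SD, n = 4 each), and the log2 fold change was 0.65 (SE 0.40, edgeR adjusted p = 0.522). It ranged from 0.20 (without IR pig 9) to 0.90 when each pig was left out.

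MMP9 was at 0.496, 22.6, 0.268 and 0 CPM in IR pigs and at 0.442, 0.703, 0.362 and 0.170 CPM in sham pigs. The value of pig 9 rested on 972 estimated counts, and the other 7 scar zone libraries held 0 to 16.2. The log2 fold change of 3.84 (SE 1.56, edgeR adjusted p = 0.438) therefore came from 1 library, and it was -0.62 without pig 9. By exact permutation of the 8 pigs, two-sided, p was 0.8. The summed level of neutrophil markers was 4.05 TPM in pig 9 and 12.2 TPM in pig 11, against 0.936 to 2.42 TPM in the other scar zone samples, and myeloperoxidase (MPO) stayed under 3 counts in every library. The sum of pig 11 was mostly S100A8, at 8.36 TPM. In pig 9, S100A8 and S100A9 were within the range of the sham scar zone, at 0.116 and 0.349 CPM against 0.0867 to 0.217 and 0.0909 to 0.436 CPM, and S100A12 was above it, at 0.4997 CPM against 0.0914 to 0.438 CPM. S100A12 was higher still in pigs 11 and 14, at 2.26 and 0.857 CPM. CSF3R, the receptor of granulocyte colony-stimulating factor, was at 1.89, 3.40, 1.46 and 1.02 CPM in IR pigs and at 0.650 to 1.36 CPM in sham pigs. LTF, another listed neutrophil marker, had a log2 fold change of -0.09 (SE 0.29). Macrophage markers were at 428 TPM in pig 9 and 532 TPM in pig 11, against 111 to 203 TPM, with 8 of 10 markers higher in both than in every other library. The part of either cell type in the MMP9 value was not tested.

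MMP11 had the opposite direction. It was at 125, 64.0, 29.0 and 98.2 CPM in IR pigs and at 137, 140, 128 and 119 CPM in sham pigs. Pigs 9, 11 and 14 lay below all sham pigs, and pig 2 was within their range. The log2 fold change was -0.73 (SE 0.36, edgeR adjusted p = 0.473), or -0.45 without IR pig 11, and the spread was 41.8 CPM (SD) in IR pigs against 9.54 CPM in sham pigs. MMP19 was at 7.56 to 20.9 CPM in IR pigs and 7.85 to 14.99 CPM in sham pigs, with a log2 fold change of 0.32 (SE 0.31) that was 0.045 without IR pig 9.

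Of the membrane-type proteases, MMP14 was at 78.6, 215, 171 and 72.6 CPM in IR pigs and at 107, 81.1, 80.1 and 96.8 CPM in sham pigs. As for MMP2, the male IR pigs were above and the female IR pigs below every sham pig, and the log2 fold change was 0.56 (SE 0.33, edgeR adjusted p = 0.510), or 0.22 without IR pig 9. MMP16 ranged from 8.14 to 22.7 CPM in IR pigs and from 13.2 to 21.1 CPM in sham pigs, with a log2 fold change of -0.15 (SE 0.28).

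Among the inhibitors, TIMP2 was the only member whose scar zone values did not overlap between the groups. It was at 159, 313, 333 and 164 CPM in IR pigs and at 153, 88.7, 152 and 138 CPM in sham pigs. The lowest IR pig and the highest sham pig lay close together, and the distance came largely from pigs 9 and 11. The means were 242 ± 93.7 and 133 ± 30.3 CPM (SD, n = 4 each), with a log2 fold change of 0.87 (SE 0.28, edgeR adjusted p = 0.438), which ranged from 0.68 to 1.02 when each pig was left out. The exact permutation p of 0.0286, two-sided, is the smallest that 4 pigs against 4 allow, and it is 1 of 20 such tests made for the members without adjustment. Of all genes tested, 2.03% lay above every sham pig in all IR pigs, and 2.85%, but no member, lay below. In TPM the groups overlapped, at 52.3 to 158 TPM in IR pigs and 27.9 to 55.1 TPM in sham pigs.

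TIMP1 was at 23.9, 36.9, 43.1 and 18.6 CPM in IR pigs and at 21.8, 14.91, 14.997 and 18.1 CPM in sham pigs. Pigs 2, 9 and 11 exceeded every sham pig, and pig 14 did not. The log2 fold change was 0.82 (SE 0.26, edgeR adjusted p = 0.438). TIMP4 was at 10.2, 13.5, 14.2 and 18.1 CPM in IR pigs and at 17.7, 16.3, 18.4 and 23.2 CPM in sham pigs. Here pigs 2, 9 and 11 were below every sham pig, and the log2 fold change was -0.43 (SE 0.18, edgeR adjusted p = 0.438). TIMP3, the most abundant inhibitor, was at 309, 529, 524 and 450 CPM in IR pigs and at 302, 582, 484 and 448 CPM in sham pigs. Its log2 fold change of -0.0011 had an SE of 0.23, and its sign turned to 0.19 on the TPM scale, on which the median of all genes moved by 0.14.

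**Figure D2:**
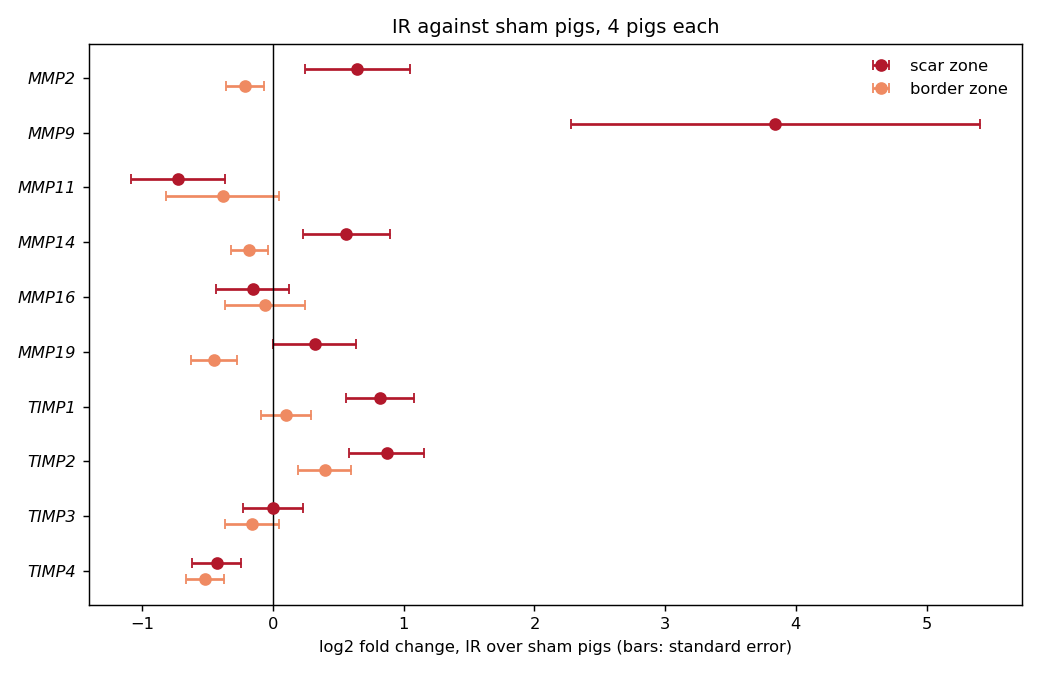
Log2 fold change of each member in IR over sham pigs by edgeR, with bars of 1 standard error and 4 pigs per group, in the scar zone (dark) and in the border zone (light). MMP9 was too low to be tested in the border zone, TIMP1 and TIMP2 lie right of 0 by 0.82 and 0.87 in the scar zone, and TIMP4 lies left of 0 in both zones, by -0.43 and -0.52.

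In the border zone, next to the injury, 9 members passed the filter on low counts and none was called with edgeR, as for 0% of the 13728 genes tested. DESeq2 and limma called none either. At an unadjusted p of at most 0.05, MMP19 and TIMP4 passed, against 3.78% of all genes, and none had a fold change of 2 as well, against 0.794%. All 5 proteases tested had negative log2 fold changes, from -0.06 for MMP16 to -0.45 for MMP19, while over all genes 50.0% were positive. The sign of MMP16 changed, to 0.13, 0.20 and 0.02, without IR pig 2, sham pig 5 or IR pig 11.

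TIMP4 gave the clearest separation in the border zone. It was at 13.8, 11.1, 12.96 and 15.8 CPM in IR pigs and at 19.1, 16.9, 21.5 and 19.3 CPM in sham pigs. Every IR pig was below every sham pig, with means of 13.4 ± 1.93 and 19.2 ± 1.87 CPM (SD, n = 4 each). The log2 fold change was -0.52 (SE 0.15, edgeR adjusted p = 0.988), from -0.61 to -0.43 when each pig was left out, and the exact two-sided permutation p was 0.0286, the smallest possible. Over all genes, 1.22% lay below every sham pig in all IR pigs, and 0.838%, with no member among them, lay above. In TPM the ranges met, at 2.54 to 3.87 TPM in IR pigs and 3.69 to 4.89 TPM in sham pigs.

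MMP19 was at 10.4, 9.71, 9.96 and 11.1 CPM in the border zone of IR pigs and at 17.9, 14.3, 10.2 and 13.9 CPM in sham pigs. The IR values were close to each other, and sham pig 12 lay among them. The log2 fold change was -0.45 (SE 0.18, edgeR adjusted p = 0.988). TIMP2 was at 188, 122, 149 and 195 CPM in IR pigs and at 113, 89.3, 140 and 155 CPM in sham pigs, with overlapping groups and a log2 fold change of 0.40 (SE 0.20, edgeR adjusted p = 0.988), or 0.26 without sham pig 5. Unlike in the scar zone, the female IR pigs were the higher ones.

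MMP11 varied widely between IR pigs in the border zone. It was at 49.6, 174, 29.2 and 80.5 CPM in IR pigs and at 102, 131, 92.6 and 106 CPM in sham pigs. Pig 9 was above all sham pigs and the other 3 IR pigs were below all of them. The log2 fold change was -0.39 (SE 0.43), and it ranged from -1.02 to -0.09 when each pig was left out. MMP2 (-0.21, SE 0.14), MMP14 (-0.18, SE 0.14), TIMP1 (0.10, SE 0.19) and TIMP3 (-0.16, SE 0.20) differed little on the log2 scale, and MMP9 held 1.00 to 21.9 estimated counts per border zone library. When each pig was left out, MMP14 ranged from -0.25 to -0.07 and TIMP3 from -0.31 to -0.03.

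Whether the IR effect differed between the zones was tested over all 16 samples. No member was called with edgeR, as for 0% of 14278 genes, and none with DESeq2 or limma. At an unadjusted p of at most 0.05 only TIMP1 passed, against 2.22% of all genes, and no member did with a fold change of 2, against 1.37%. The log2 difference, scar minus border zone effect, was 0.73 for TIMP1 (SE 0.34), 0.87 for MMP2 (SE 0.46), 0.78 for MMP19 (SE 0.38) and 0.75 for MMP14 (SE 0.39), with edgeR adjusted p = 1.00 for each. Without IR pig 9 these differences were 0.46, 0.47, 0.47 and 0.45. Once a replicate block for the pig was added, TIMP1 and MMP19 passed the unadjusted p, against 6.99% of all genes, and none with the fold change, against 1.52%. For TIMP4 it was 0.10 (SE 0.23).

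Within IR pigs, scar and border zone were compared in the same fit. No member was called by edgeR, DESeq2 or limma at the adjusted threshold, which called 0% of the genes. At an unadjusted p of at most 0.05 in edgeR, 5 members were higher in the scar zone, against 6.91% of all genes. These were MMP2 (log2 fold change 0.96), MMP9 (3.98), MMP14 (0.78), TIMP1 (0.73) and TIMP2 (0.58), with edgeR adjusted p of 0.497 to 0.709. MMP9 alone also had a fold change of 2, against 2.32% of all genes, and without pig 9 its value was -0.07. Without that pig MMP2 was at 0.57, MMP14 at 0.49, TIMP1 at 0.47 and TIMP2 at 0.29. Both zones come from the same pigs. In the fit with a replicate block for the pig, MMP2, MMP14 and TIMP1 passed the unadjusted p, against 18% of all genes, while MMP9 and TIMP2 did not, and no member passed with the fold change, against 2.05%. In sham pigs no member passed by edgeR at the adjusted threshold (0% of genes), nor by DESeq2 or limma. None passed at an unadjusted p with (0.105% of genes) or without (0.42%) the fold change, and their log2 fold changes lay between -0.31 for MMP19 and 0.53 for MMP9. The replicate block gave none either, against 2.75% of all genes, or 0.21% with the fold change.

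The differences within single pigs showed how uneven the IR group was. For TIMP1 the scar zone exceeded the border zone by 0.05, 1.47, 1.07 and 0.06 on the log2 CPM scale in IR pigs 2, 9, 11 and 14. The same difference was 0.04, 0.02, -0.08 and 0.01 in sham pigs 4, 5, 12 and 13. The sham pigs thus had nearly the same TIMP1 level in both zones, and so did the female IR pigs.

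For MMP2 the differences in IR pigs were -0.04, 1.58, 1.52 and -0.19, for MMP14 they were 0.12, 1.28, 1.32 and -0.26 and for TIMP2 -0.24, 1.36, 1.16 and -0.25. MMP2 and TIMP2 were thus higher in the scar zone in 2 of 4 IR pigs. MMP19 had negative differences in all 4 sham pigs, of -0.25, -0.40, -0.38 and -0.23, and was at 0.06, 1.10, 0.75 and -0.55 in IR pigs. MMP11 had no common direction in IR pigs, at 1.34, -1.44, -0.01 and 0.29, and was higher in the scar zone in all 4 sham pigs, by 0.09 to 0.47. MMP16 was also higher there in all 4 sham pigs, by 0.02 to 0.59. The share of all genes with a common direction in the sham pigs was not computed.

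**Figure D3:**
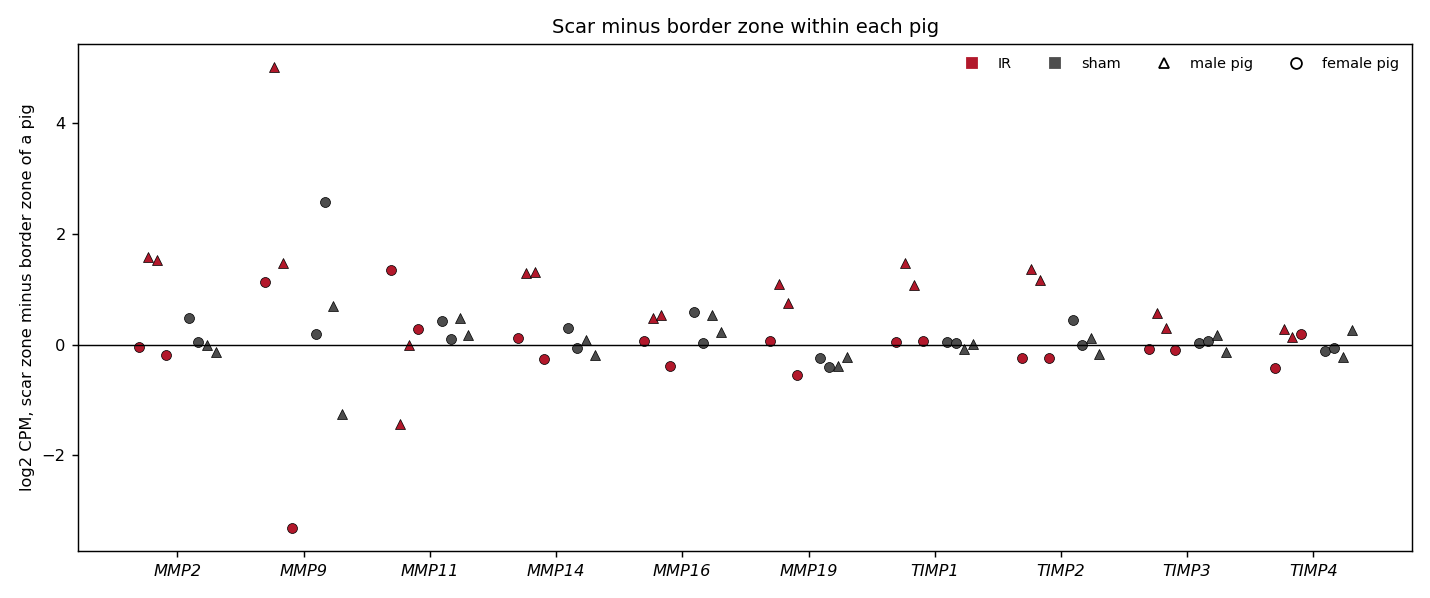
Scar minus border zone difference of log2 CPM within each pig, for the 10 members, in IR pigs (red) and sham pigs (grey), with triangles for males and circles for females and a line at 0. The male IR pigs lie between 1.07 and 1.58 for MMP2, MMP14, TIMP1 and TIMP2, and the sham pigs lie within 0.08 of 0 for TIMP1.

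As the 2 male and the 2 female IR pigs fell on either side of the sham pigs for MMP2 and MMP14, the IR effect was compared between sexes in the scar zone, a comparison added after the values had been seen. In log2 CPM, MMP2 differed between IR and sham by 1.39 in males and -0.57 in females, with 2 pigs per sex and surgery. MMP14 differed by 1.12 and -0.30, MMP19 by 0.96 and -0.49, TIMP1 by 1.27 and 0.23, TIMP2 by 1.16 and 0.47, and MMP11 by -1.52 and -0.32. MMP2 was the only member called by edgeR, with a log2 difference of 1.96 (SE 0.28, adjusted p = 0.0262), where 1.33% of 14624 genes were called. By the unadjusted p with the fold change, 6 members passed, against 9.16% of all genes. DESeq2 called 3 members, against 4.79% of all genes, and limma on TPM called 2, against 3.56%, on a scale that moved the median of all genes by 0.41. MMP14 stood just outside the threshold in edgeR, at 1.44 (SE 0.27, edgeR adjusted p = 0.0507). The MMP2 call was lost without IR pig 14 or any of sham pigs 4, 5, 12 and 13, with edgeR adjusted p of 0.0812, 0.0882, 0.0651, 0.138 and 0.121, while the difference stayed between 1.71 and 2.19 for every pig left out. In the border zone MMP2 differed by -0.23 in males and -0.19 in females. The border zone libraries of pigs 9 and 11 were also deep, at 33521418 and 49045206 counts, and held 234 and 174 CPM of MMP2, against 201 to 268 CPM in sham pigs. The part of library depth in these levels was not tested. With 2 pigs for each sex and surgery, sex and the single pigs cannot be told apart.

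The same 2 male IR libraries were higher than all 14 others for 4 of 10 members (MMP2, MMP14, TIMP1 and TIMP2), as for 10.5% of all genes. Markers of several cell types moved with them. Besides the fibroblast and macrophage markers above, 4 of 6 markers of activated fibroblasts were higher in both than in all other libraries, with summed levels of 975 TPM in pig 9 and 398 TPM in pig 11 against 111 to 222 TPM elsewhere. All 3 epicardial markers that passed the filter, of 5 listed, were also higher in both. Other lists did not move in this way. By the same rule, 0 of 6 endothelial, 0 of 6 lymphocyte, 0 of 3 neutrophil and 0 of 3 adipocyte markers were higher in both. Of 6 smooth muscle and pericyte markers, 1 was. Of 8 cardiomyocyte markers, 3 were lower in both than in every other library, as for 9.01% of all genes, and their sums of 45271 and 43673 TPM were the lowest of the 16 samples. The part of the cell composition in the levels of the members was not tested, and in bulk tissue more cells of a type and more RNA per cell cannot be told apart.

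**Figure D4:**
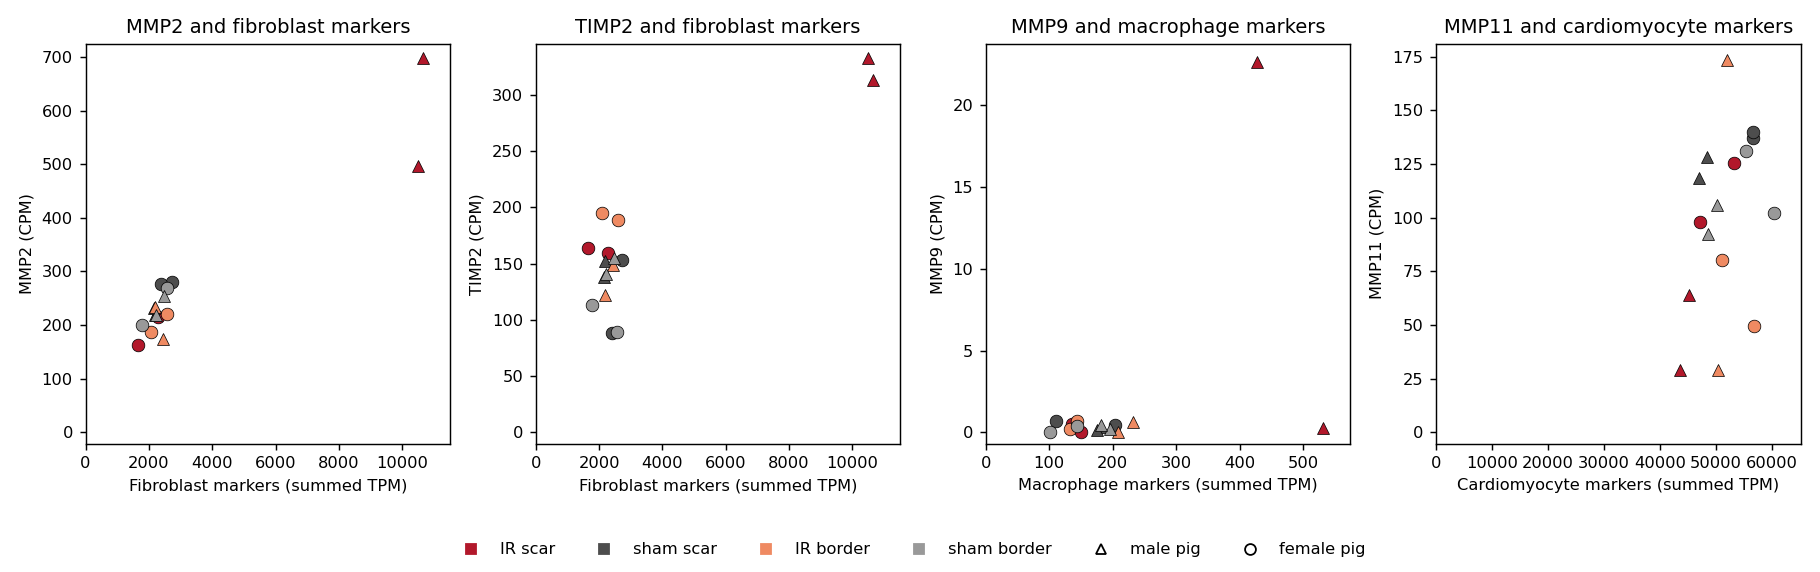
Levels of MMP2, TIMP2, MMP9 and MMP11 (CPM) against summed TPM of marker genes of fibroblasts, macrophages or cardiomyocytes in the 16 samples, coloured by group, with triangles for males and circles for females. IR scar samples 9 and 11 stand at 10658 and 10496 TPM of fibroblast markers with the highest MMP2 and TIMP2, while MMP9 is at 22.6 CPM in pig 9 and 0.268 CPM in pig 11 with macrophage markers at 428 and 532 TPM.

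The balance of proteases and inhibitors was described per sample as the summed TPM of the 6 MMPs over that of the 4 TIMPs, with no test. In the scar zone the ratio was 0.990, 1.22, 0.811 and 0.671 in IR pigs and 1.29, 0.986, 0.858 and 0.926 in sham pigs. The means of 0.922 ± 0.236 and 1.02 ± 0.191 (SD, n = 4 each) differed by less than the spread. In the border zone the ratio was 0.710, 1.33, 0.536 and 0.662 in IR pigs and 1.07, 0.998, 0.830 and 0.886 in sham pigs, so that 3 IR pigs were below and pig 9 above all sham pigs.

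The sums themselves were far apart. In the IR scar zone the MMP sum was 168, 536, 284 and 127 TPM and the TIMP sum 169, 441, 350 and 190 TPM. In the sham scar zone the MMP sum was 169 to 223 TPM and the TIMP sum 173 to 205 TPM. In pigs 9 and 11 proteases and inhibitors were thus both high, and their ratio stayed near that of the other samples. The ratio rests mostly on a few abundant members, since TIMP3 made up 21.1% to 37.9% of the summed TPM of the 10 members and MMP2 15.9% to 34.8%. The log2 ratio, IR minus sham, was -0.16 (scar) and -0.31 (border). Single pigs moved it. In the scar zone it lay between -0.30 (without IR pig 9) and -0.02 (without IR pig 14) and was -0.04 without sham pig 4, and in the border zone it lay between -0.58 (without IR pig 9) and -0.14 (without IR pig 11). In the scar zone it was 0.01 with summed CPM in place of TPM, and -0.64 with TIMP3 and TIMP4 left out.

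Single pairs were then followed. The TPM ratio of MMP2 to MMP14 had similar means in the groups. They were 2.49 ± 0.373 in the IR scar zone, 2.43 ± 0.366 in the sham scar zone, 2.19 ± 0.363 in the IR border zone and 2.27 ± 0.291 in the sham border zone (SD, n = 4 each). Single samples ranged from 1.74 in the IR border zone to 2.96 in the sham scar zone. The ratio of MMP2 to TIMP2 was 1.46 ± 0.498 in the IR and 1.95 ± 0.729 in the sham scar zone, with overlapping values. In the border zone it was 1.26 ± 0.404 and 1.93 ± 0.654. For MMP14 to TIMP2 it was 0.577 ± 0.113 and 0.787 ± 0.180 in the scar zone, and 0.580 ± 0.182 and 0.843 ± 0.205 in the border zone. These values also overlapped. MMP2 to TIMP3 went the other way in the scar zone, at 1.04 ± 0.505 in IR and 0.742 ± 0.281 in sham pigs, with overlap. Of all 45 pairs of members, the ratio of 5 did not overlap between IR and sham pigs in the scar zone (11.1%), that of 2 in the border zone (4.44%) and that of 1 in both. Over the 98525703 pairs of the 14038 genes that passed the filter with TPM above 0 in every sample, these shares were 5.22%, 2.29% and 0.352%. MMP9 was at 0 TPM in the scar zone of IR pig 14, so its pairs are among the 45 but not in this background. The member pairs share genes and are not independent, and no test was made. The pair apart in both zones was TIMP2 and TIMP4, which had been chosen after the values were seen. TIMP2 was 22.3, 35.6, 37.0 and 14.2 times as abundant as TIMP4 in the scar zone of IR pigs, and 13.5, 8.54, 13.02 and 9.34 times in sham pigs. In the border zone the ratio was 16.7, 17.3, 18.0 and 19.4 in IR pigs and 9.28, 8.01, 10.3 and 11.5 in sham pigs. The lowest IR pig and the highest sham pig were close in the scar zone, at 14.2 and 13.5. The other 4 pairs apart in the scar zone were those of MMP11 and of MMP16 with TIMP1 and with TIMP2. MMP11 was 0.129 to 1.17 times as abundant as TIMP2 in IR pigs and 1.25 to 2.33 times in sham pigs. The ratio of TIMP1 to TIMP4 was likewise apart in the border zone, at 6.90 to 9.65 in IR pigs and 4.48 to 6.55 in sham pigs, and overlapped in the scar zone through pig 14.

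**Figure D5:**
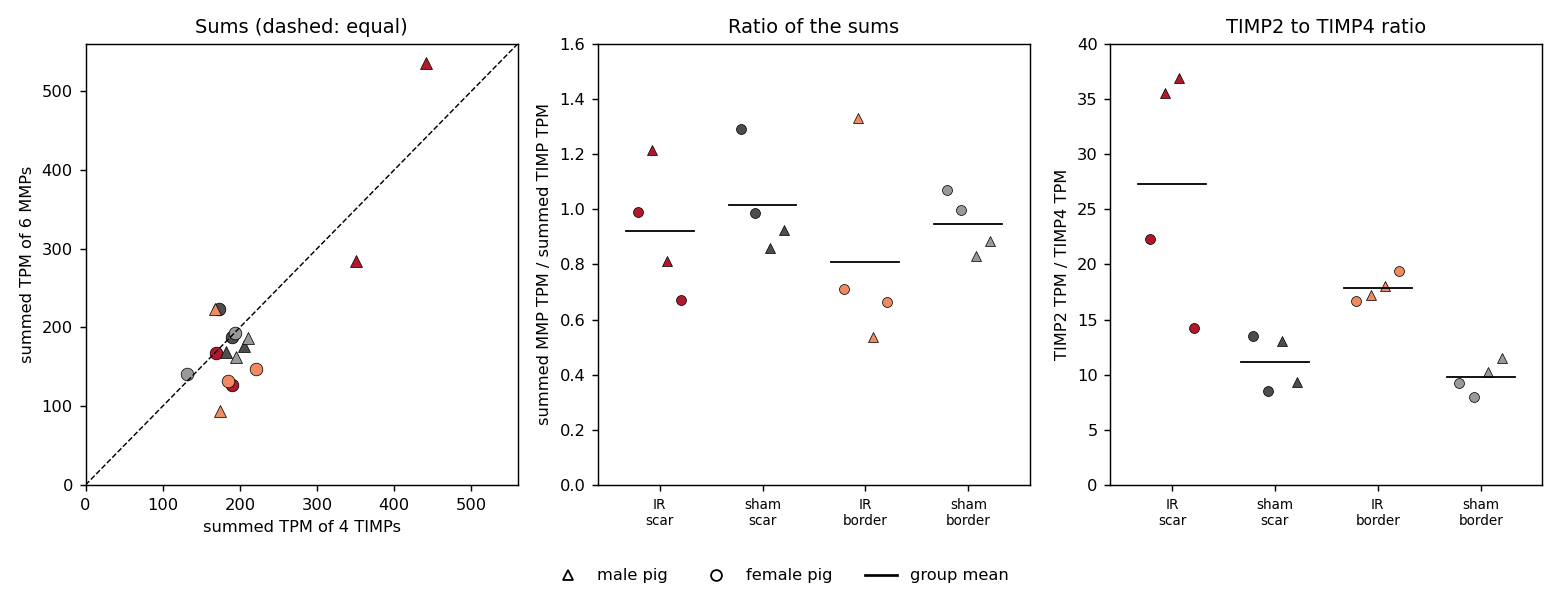
Summed TPM of the 6 MMPs against the 4 TIMPs per sample (left, colours as in the other panels, dashed line at equality), their ratio by group (middle) and the ratio of TIMP2 to TIMP4 TPM by group (right), with triangles for males, circles for females and lines at group means. IR scar pigs 9 and 11 have high sums, at 536 and 284 TPM of MMPs, with ratios of 1.22 and 0.811, and the TIMP2 to TIMP4 ratio is above that of every sham pig in all IR pigs of both zones.

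Across the 16 samples, which share animals and differ in depth, some members varied together. The Pearson correlation of log2 CPM was 0.93 between MMP2 and MMP14, 0.84 between TIMP1 and TIMP2 and 0.81 between MMP16 and TIMP3. MMP11 ran against TIMP1 and TIMP2, at -0.67 and -0.64. The scar zone libraries of the male IR pigs were the highest samples for MMP2, MMP14, TIMP1 and TIMP2. Their part in these correlations was not tested.

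Among all genes that passed the filter, those with the pattern most like a member were named by the same correlation over the 16 samples. For MMP2 these were DNM1 (0.96), a dynamin, and ANGPTL2 (0.95), a secreted angiopoietin-like protein. For MMP14 the closest was ADAM12 (0.95), a membrane-bound metalloproteinase, and for TIMP1 SLC39A7 (0.95), a zinc transporter of the secretory pathway. MMP11 was closest to EFHD1 (0.96), KANK2 (0.96) and TBX5 (0.95), the last a cardiac transcription factor. TIMP2 was closest to WISP1 (0.92), a secreted matricellular protein, MMP19 to ADCY2 (0.91) and then VIM (0.89), the intermediate filament of mesenchymal cells, and TIMP4 to TMEM98 (0.91). For MMP16 and TIMP3 the closest were AHNAK (0.93) and MYO9A (0.89). The closest to MMP9 was ACP5 (0.86), the tartrate-resistant phosphatase of osteoclasts and some macrophages, but the value was 0.42 without the scar zone library of pig 9. Without that library DNM1 was at 0.94 with MMP2, ADAM12 at 0.90 with MMP14, SLC39A7 at 0.94 with TIMP1 and WISP1 at 0.89 with TIMP2. The scar zone library of the other male IR pig was kept in these values.

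Other genes of matrix turnover were followed as lists in the scar zone, where the background for the same rule, unadjusted p and fold change, was 3.35% and 53.9% of all genes had a positive log2 fold change. The lists were chosen with earlier results of these data known, so their counts beside these shares are descriptions and not tests. Of 16 other MMPs, 13 had an entry and 6 passed the filter. Their median log2 fold change was 0.41, and MMP23B alone passed, at 1.20 (SE 0.50), with MMP15 lowest at -0.21. The 7 that were not tested reached at most 14.5 counts in any library apart from MMP12, the macrophage elastase, which held 43.0 counts in the scar zone of pig 9 and 0 to 2.00 in every other library.

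Of 19 ADAM and ADAMTS proteases tested, 12 were positive and only ADAM12 passed, at 2.53 (SE 0.78), with ADAMTS12 lowest at -0.54. Among 16 genes of MMP activation and clearance, 14 were positive with a median of 0.60. Of these THBS2, a matricellular protein that binds MMP2, passed at 1.86 (SE 0.62) and PCOLCE, an enhancer of procollagen processing, at 1.05 (SE 0.45), while the protease inhibitor A2M was lowest at -0.85. All 5 cysteine proteases and other genes of collagen degradation tested were positive, from 0.23 for CTSB to 1.92 (SE 0.70) for CTSL, a lysosomal cathepsin and the only one to pass.

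Matrix substrates had the highest median, 1.13, with 14 of 17 positive and 8 past the unadjusted rule. These were COL1A1 (1.96), COL1A2 (1.59), FN1 (1.92), ELN (1.50), BGN (1.82), SPP1 (2.65), POSTN (1.85) and TNC (3.48), and LAMC1 was lowest at -0.17. No gene of these lists was called after adjustment by edgeR in the comparison of IR with sham pigs, and none of them passed the unadjusted rule in the border zone.

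As for the members, pigs 9 and 11 carried much of these values. Both were higher than every other library for 13 of the 17 substrates, 10 of the 16 genes of activation and clearance, 4 of the 5 genes of collagen degradation, 6 of the 19 ADAM and ADAMTS proteases and 2 of the 6 other MMPs, against 10.5% of all genes. These counts partly repeat those of the markers. The substrates COL1A1, COL1A2, COL3A1, DCN, POSTN and TNC, and FAP of collagen degradation, were also markers of fibroblasts or activated fibroblasts. IR and sham pigs did not overlap for 2 of the 17 substrates, BGN and ELN, and for SERPINE2, a protease inhibitor, among the 16 genes of activation and clearance, with IR pigs above every sham pig as for 2.03% of all genes. The exact two-sided permutation p of these 3 genes was 0.0286, the smallest possible, and it was 0.0857 to 0.371 for the other 6 substrates past the unadjusted rule. In the comparison of the IR effect between sexes, where 1.33% of all genes were called, edgeR called 10 of the 17 substrates, 2 of the 19 ADAM and ADAMTS proteases, 2 of the 16 genes of activation and clearance, 1 of the 5 genes of collagen degradation and 0 of the 6 other MMPs. The log2 difference, male minus female, was 2.73 for COL3A1 (SE 0.23, edgeR adjusted p = 0.0108) and 4.69 for TNC (SE 0.48, edgeR adjusted p = 0.0134), against 1.96 for MMP2.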

How the data were processed

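Polyadenylated RNA of 16 samples from 8 pigs was sequenced by the authors as stranded libraries. Trimmomatic 0.33, HISAT2 2.0.5 and kallisto 0.43.1 are named in the submitters' processing notes, and the genome build is not given in the sources used here. The authors deposited estimated counts per gene, which are not scaled for depth, and TPM, scaled for transcript length and depth. Groups, pig and sex came from the sample labels.

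Estimated counts were rounded and tested with edgeR 4.0.16 (R 4.3.3) using TMM scaling, filterByExpr (minimum count 10, minimum total 15), the quasi-likelihood test and p-values adjusted by Benjamini-Hochberg across every tested gene. Calls needed an adjusted p up to 0.05 and a change of 2-fold or more. CPM were TMM-scaled, with a prior count of 2 on the log2 scale. Totals of 15427663 to 49045206 put 3 counts at 0.0612 to 0.194 CPM, which covers counting error only. The members and lists were chosen with earlier results of these data known. All members were named, and of each list the highest, the lowest and those past the threshold.

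Scar and border zone samples with the same number came from the same pig, and their deviations from group means correlated at 0.353 to 0.690. IR and sham pigs are different animals, and p-values for them measure the spread between pigs. Alternatives were DESeq2 1.42.0, upper-quartile scaling, limma 3.58.1 on log2(TPM + 1) and log2(TPM + 0.1) with a filter of TPM 1 in 4 samples and without it, no count filter, sex as a covariate, 1 fit of all samples, 1 factor of unwanted variation from 5000 genes, a replicate block and leaving out each pig. In data simulated for the scar zone comparison, with 14023 genes, 100 changed by 2 and 100 by 3 on the log2 scale. Of each, edgeR and DESeq2 recovered 100, with 6 and 17 false calls in all, and limma 86 and 97, with 3. Recovery of log2 changes smaller than 2 was not tested. In the pigs themselves edgeR called 0% of the 14023 genes in this comparison. TNC, at 3.48 (SE 0.95, edgeR adjusted p = 0.438), was among those not called. Non-overlapping member pairs and single samples on the CPM scale were added after the data had been seen. Sequences and positions of the members were not used here.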

Additional observations from a re-analysis of the deposited data

Results flagged for a closer look

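The IR effect on MMP2 in the scar zone differed between sexes, with a log2 difference, male minus female, of 1.96 (SE 0.28, edgeR adjusted p = 0.0262). It was higher in IR than in sham pigs in 2 of 2 males and lower in 2 of 2 females. The comparison was prompted by these values, and edgeR no longer called the difference without IR pig 14 or any of sham pigs 4, 5, 12 and 13. Higher fibroblast markers of the male IR pigs moved with it, their part was not tested, and sex and the single pigs cannot be told apart.

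The MMP9 level of IR pig 9 in the scar zone, 22.6 CPM, was far from the other 3 IR pigs, with a gap of 0.978 of the whole range of the group. It was the only such sample in the 40 groups of 4 CPM values of the members, where chance alone gives about 2. On the log2 scale, with the ratio of proteases to inhibitors added, none was found in 44 groups, where chance gives about 2.2.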

How the results depend on the processing

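With 4 pigs per group, no member was called in the 5 comparisons between groups or zones under any alternative that kept the adjusted p, leaving out each pig included (0 to 0 members). The unadjusted p with the fold change called 1 member, MMP9, in the scar zone and 1 between zones in IR pigs. The replicate block changed no call between zones at the adjusted p, and its counts at the unadjusted p stand beside the results. The IR effect on TIMP1, scar minus border zone, was 0.70 with the replicate block.

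For the sex comparison DESeq2 called 3 members, limma 2 and the unadjusted p 6, and leaving out each pig gave 0 to 2, where the arm left with 1 sample is assumed to vary like the others. The ratio of proteases to inhibitors in the scar zone moved to -0.64 without TIMP3 and TIMP4, by that construction, and was 0.01 with summed CPM.

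Several directions turned, and the cause was not tested where no pig or shift of all genes is named. When each pig was left out, the log2 fold change in the scar zone ranged from -0.62 (without pig 9) to 4.25 for MMP9, from -0.43 to 0.047 for MMP16 and from -0.16 to 0.14 for TIMP3. TIMP3 was also at 0.19 in all 3 limma fits, which moved the median of all genes by 0.12 to 0.16, and at 0.0066 in 1 fit of all samples. In the border zone the range was -0.25 to 0.20 for MMP16 and -0.023 to 0.24 for TIMP1. For the difference between zones it was -0.62 to 4.21 for MMP9, -0.84 to 0.39 for MMP11 and -0.27 to 0.12 for MMP16. Between zones in IR pigs it was -0.070 to 4.74 for MMP9, -0.57 to 0.67 for MMP11 and -0.012 to 0.20 for TIMP4, and MMP11 was at 0.20, 0.21 and 0.20 in limma, where that median moved by 0.12 to 0.15, and 0.054 with the replicate block. Between zones in sham pigs it was -0.034 to 0.16 for MMP2, -0.16 to 1.21 for MMP9, -0.073 to 0.11 for MMP14, -0.017 to 0.017 for TIMP1, -0.023 to 0.19 for TIMP2, -0.018 to 0.089 for TIMP3 and -0.14 to 0.040 for TIMP4. TIMP1, at -0.0038, was there at 0.0017 without the count filter and at 0.0069, 0.0065 and 0.0069 in limma, while the median of all genes moved by 0.0051 and by 0.016 to 0.020, about as much or more. In the sex comparison TIMP3, at 0.40, ranged from -0.15 (without sham pig 5) to 0.79, and TIMP4, at -0.32, from -0.67 to 0.14 (without IR pig 14). TIMP4 was at 0.090 in limma, a move equal to the shift of 0.41 in the median of all genes.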
